A study of Homo sapiens with 6 samples.

Results

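The miR-193 and miR-365 genes form a pair of paralogous clusters, and every mature arm of miR-193a, miR-193b, miR-365a and miR-365b listed in the deposited table was taken by its name. This gave 7 of the 413 miRNAs in the table, which are hsa-miR-193a-5p, hsa-miR-193a-3p, hsa-miR-193b-5p, hsa-miR-193b-3p, hsa-miR-365a-5p, hsa-miR-365a-3p and hsa-miR-365b-3p. hsa-miR-365b-5p was not analysed here. MDA-MB-231, a human cell line of triple-negative breast cancer, was the source of all small RNA libraries. The WA group (n = 3) was exposed for 24 h to 2 µM Withaferin A (WA), a steroidal lactone of the plant Withania somnifera. The vehicle group held 3 libraries. Per the study's methods these cells received DMSO, while the labels call them untreated. Both groups are one cell line with no other genetic change, and 1 dose and 1 time point were measured.

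A miRNA gene is transcribed into a hairpin, from which both the 5p and the 3p arm can be released as mature RNAs of about the same length. One arm is usually kept by Argonaute, the protein that carries miRNAs to their targets, and the other is mostly degraded. The seed, bases 2 to 8, pairs with target mRNAs, so arms with the same seed are read as one family. The miR-193 3p arms are known as repressors of growth and survival genes such as MCL1 and cyclin D1, and miR-193b is known to repress the protease urokinase in breast cancer cells. The miR-193b and miR-365 genes have also been reported to act in the formation of brown fat.

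The 7 names stand for 6 different mature sequences, shown here 5′ to 3′ with the seed in capitals because the results turn on which rows share reads or seeds. They are taken from RefSeq on GRCh38.p14, where all 7 names were matched.
hsa-miR-193a-3p: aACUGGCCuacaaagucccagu
hsa-miR-193b-3p: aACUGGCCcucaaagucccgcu
hsa-miR-193a-5p: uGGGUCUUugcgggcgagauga
hsa-miR-193b-5p: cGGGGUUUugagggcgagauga
hsa-miR-365a-5p: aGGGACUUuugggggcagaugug
hsa-miR-365a-3p: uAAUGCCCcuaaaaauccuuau
hsa-miR-365b-3p: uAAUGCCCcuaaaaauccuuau

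The 3p arms of miR-193a and miR-193b share the seed and 18 of their 22 bases. Counted from 1 at the 5′ end, with the base of miR-193a first, they differ by U9C, A10U, A20G and G21C. The 5p arms also share 18 of 22 bases, but 2 of the differences, U5G and C6U, lie in the seed, so the seeds differ. No other mature sequence in the RefSeq table had the seed of the miR-193 3p arms or that of the miR-365 3p arms. miR-365a-3p and miR-365b-3p are identical over all 22 bases, and their values in the table were equal in every library. Reads of this sequence were therefore listed under both names, and the locus they came from cannot be told apart. The GC content was 31.8% for the miR-365 3p sequence and lay between 50.0% and 59.1% for the other members.

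The hairpins are shown with both mature arms in capitals, so that the position of each measured arm can be seen.
MIR193B: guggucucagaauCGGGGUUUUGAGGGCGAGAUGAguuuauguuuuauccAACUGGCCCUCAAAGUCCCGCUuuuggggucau
MIR365A: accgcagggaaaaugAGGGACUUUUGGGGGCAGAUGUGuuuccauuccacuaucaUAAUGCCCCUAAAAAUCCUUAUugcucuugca
MIR193A: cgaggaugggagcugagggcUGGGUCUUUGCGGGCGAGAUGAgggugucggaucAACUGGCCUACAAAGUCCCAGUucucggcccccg
MIR365B: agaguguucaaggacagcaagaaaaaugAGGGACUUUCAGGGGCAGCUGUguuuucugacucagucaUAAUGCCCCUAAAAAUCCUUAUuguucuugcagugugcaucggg

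All 4 hairpins lie on plus strands. MIR193B is on chromosome 16 from 14303967 to 14304049 and MIR365A follows after a gap of 5235 bases, from 14309285 to 14309371. Both lie in introns of the long noncoding RNA gene MIR193BHG, where they overlap 0 exons in GENCODE release 44. MIR193A is on chromosome 17 from 31559996 to 31560083, and no other GENCODE gene overlaps it. MIR365B follows after 15327 bases, from 31575411 to 31575521, and overlaps an exon of the noncoding gene MIR365BHG.

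**Figure D1:**
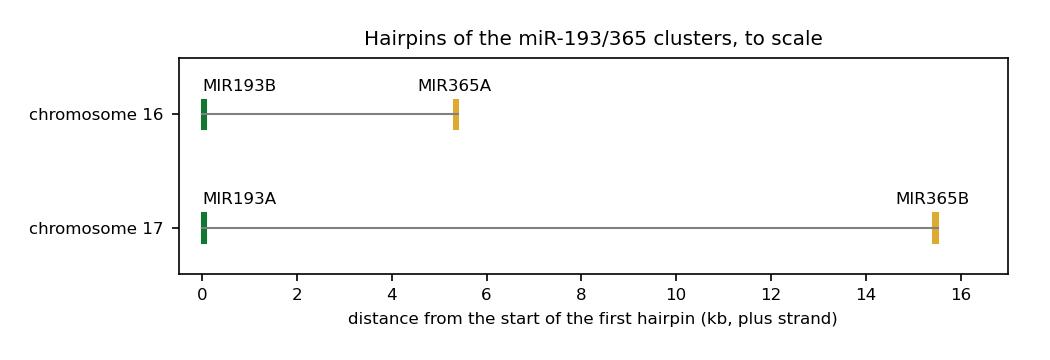
The 4 hairpins drawn to scale, with the distance in kb from the start of the first hairpin of each cluster on the x axis and one row per chromosome. The 2 hairpins of the chromosome 16 cluster are 5235 bases apart and those of the chromosome 17 cluster 15327 bases.

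The values are read counts that the authors divided by a size factor per library, called normalized values here. Within a library all of them were multiples of one step, and reads are given on the assumption that 1 step is 1 read. The vehicle libraries held between 710878 and 4778066 reads and the WA libraries between 156442 and 2232934, so the WA values of the rarer arms rest on few reads. In WA replicate 1, the shallowest library, the 3 reads that a count of 0 can hide amount to a normalized value of 17.4. Before the results, 2 libraries must be named because they lay apart from their own groups. Over the 327 miRNAs tested, vehicle replicate 1 was at least 5 times both other vehicle libraries for 33 miRNAs (10.1%) and as far below both for 52 (15.9%). WA replicate 3 was at least 5 times both other WA libraries for 100 (30.6%) and as far below both for 48 (14.7%). No other library was so far above its group for more than 4 miRNAs or below it for more than 11. Results that rest on them are given with and without them.

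No member passed the test across all miRNAs. The groups were compared by limma on log2(normalized value + 1), with Benjamini-Hochberg adjustment over the 327 miRNAs whose normalized value reached 10 in 3 or more libraries. Of the 7 members 6 passed this filter, and they had adjusted p-values between 0.182 and 0.620. Over all tested miRNAs, 18 had an adjusted p under 0.05, or 5.50%. At an unadjusted p under 0.05 there was 1 member of 6, miR-193b-5p, against 26.3% of all tested miRNAs. Its values reached 10 in the 3 WA libraries alone, so it entered the test through the group where it is high, and neither its p nor its sign supports a difference. The log2 fold change was above 0 for 4 of the 6 tested members and for 129 of the 327 tested miRNAs (39.4%). Its median was 2.22 over these members and -0.91 over all tested miRNAs. The 4 are miR-193a-5p, miR-193b-5p and the miR-365 3p sequence under both names, which counts as 2 members. Neither this count nor the median therefore supports a shift of the members as a set. With libraries left out, the members that passed are read against all tested miRNAs in the same fit. Without vehicle replicate 1, 21 of the 327 passed (6.42%), without WA replicate 3, 147 (45.0%), and without both, 235 (71.9%). Of the 6 members, 2, 2 and 4 passed, in the same order. The first 2 are the miR-365 3p sequence under both names. The second 2 and the 4 include miR-193b-5p, whose entry to the test required high WA values, so these counts support no difference. The other member of the second 2 is miR-365a-5p. In that fit only vehicle libraries reached the filter value for it, so its entry rested on the group where it is high.

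miR-193b-3p, the more abundant arm of MIR193B outside WA replicate 3 and the member with the highest mean over the 6 libraries, had a difference between the groups that was smaller than the spread of the libraries. Normalized values of 2598, 136 and 161 were found in vehicle replicates 1 to 3. In the WA libraries they were 325, 191 and 125, in replicate order. The groups overlap, with vehicle replicate 1 far above the other 5 libraries and WA replicate 3 below both remaining vehicle libraries. On the log2 scale the fold change was -0.96 (standard error 1.26, limma adjusted p = 0.620). Its sign rested on vehicle replicate 1, since it was 0.42 (standard error 0.704, limma adjusted p = 0.688) without that library.

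miR-365a-3p and miR-365b-3p, the more abundant miR-365 arm, shared by both clusters, had a narrow range in WA-treated cells and a wide one in vehicle-treated cells. Under either name the vehicle libraries were at 666, 48.6 and 29.3, in replicate order. The WA libraries were at 580, 440 and 393. Every WA library was above vehicle replicates 2 and 3, and vehicle replicate 1 was above every WA library. The log2 fold change was 2.22 (standard error 1.26, limma adjusted p = 0.317). Without vehicle replicate 1 it was 3.59 (standard error 0.639, limma adjusted p = 0.0437), which passes the threshold as 6.42% of all tested miRNAs did in that fit.

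miR-193a-5p, the more abundant arm of the chromosome 17 hairpin in every library, was higher in WA replicates 1 and 2 than in every vehicle library. The values of vehicle replicates 1 to 3 were 248, 10.00 and 19.9, and those of the WA libraries, in the same order, 580, 525 and 140. The groups overlap only through vehicle replicate 1, which lies above WA replicate 3. This gave a log2 fold change of 3.19 (standard error 1.42, limma adjusted p = 0.208), and 4.53 (standard error 0.996, limma adjusted p = 0.0627) without vehicle replicate 1. With vehicle replicate 1 set aside, the 3 WA libraries all lay above both other vehicle libraries for miR-193a-5p and the miR-365 3p sequence. They did so for miR-193b-5p too, where entry to the test required it. This held for 56 of the 327 tested miRNAs, or 17.1%.

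**Figure D2:**
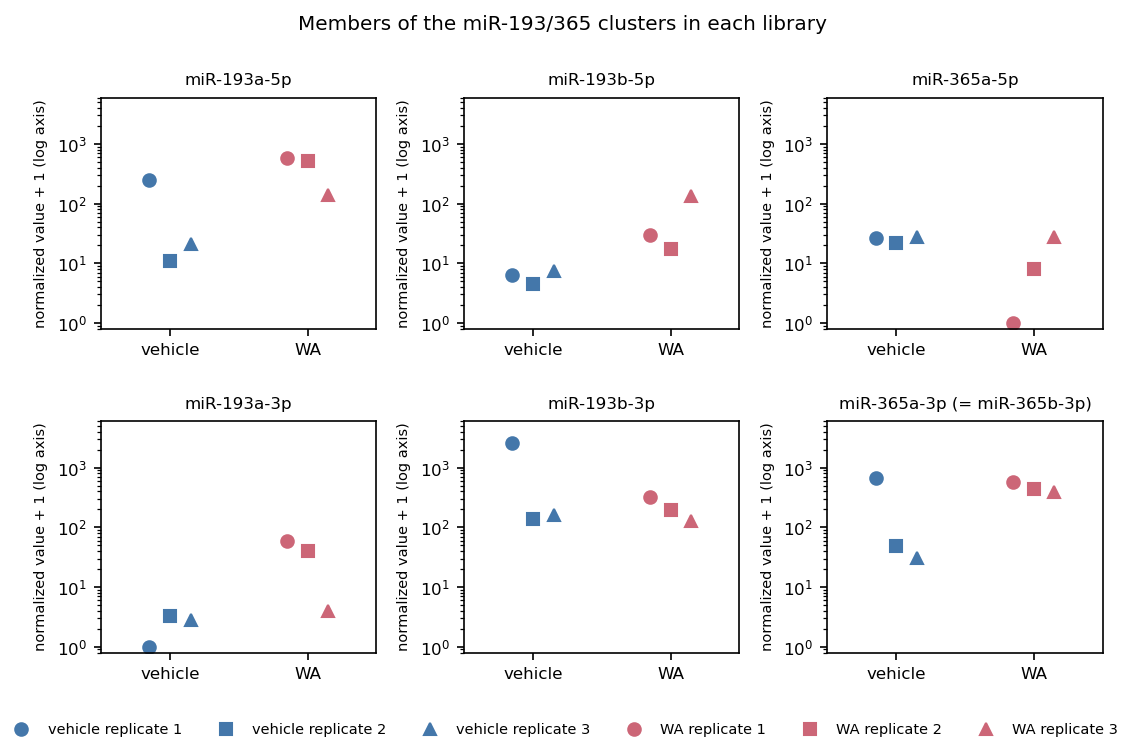
Normalized value plus 1 on a log axis for the 6 distinct members, with one point per library (blue for vehicle, red for WA, and a marker for each replicate number). Vehicle replicate 1 stands above the other vehicle libraries for miR-193a-5p, miR-193b-3p and miR-365a-3p and lies among them for miR-193b-5p and miR-365a-5p.

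The high values of vehicle replicate 1 lay in the more abundant arm of each hairpin. In that library miR-193a-5p was 16.6 times the mean of vehicle replicates 2 and 3, miR-193b-3p was 17.5 times and the miR-365 3p sequence 17.1 times. The other arms of the chromosome 16 hairpins did not share this, since miR-193b-5p and miR-365a-5p were each at 1.1 times. miR-193a-3p was listed at 0 there, where 3 reads would be a value of 4.06. These ratios describe 1 library and carry no test. The share of other hairpins with this pattern was not computed, so it cannot be called particular to the members.

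The less abundant arms were low in every vehicle library and rest on fewer reads. miR-193b-5p was at 5.42, 3.43 and 6.42 in the vehicle libraries, in replicate order, and at 29.0, 16.1 and 131 in the WA libraries. These are 4, 12 and 21 reads against 5, 9 and 174. The lowest WA library was above the highest vehicle library, as for 25 of the tested miRNAs, or 7.65%, in that direction. The log2 fold change was 2.77 (standard error 1.17, limma adjusted p = 0.182), and 1.93 (standard error 0.592, limma adjusted p = 0.0440) without WA replicate 3, a fit in which 45.0% of all tested miRNAs passed. It was tested because its values reached 10 in the 3 WA libraries alone, so a difference in this direction was a condition of entry.

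miR-193a-3p, which carries the seed of miR-193b-3p, had vehicle values of 0, 2.28 and 1.83. Its WA values were 58.0, 39.3 and 3.01, in replicate order. It missed the filter with 2 libraries at 10 or above. These are 0, 8 and 6 reads against 10, 22 and 4, so the gap between WA replicate 3 and vehicle replicate 2 is not detectable at this depth. In a fit with no filter on low values its log2 fold change was 3.33 (standard error 1.26, limma adjusted p = 0.115).

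miR-365a-5p is the only miR-365 arm here that can be assigned to chromosome 16, and its values were lower in WA replicates 1 and 2. In vehicle-treated cells it was at 25.7, 20.6 and 26.3. The WA libraries were listed at 0, 7.15 and 27.0, in replicate order, so WA replicate 3 was above every vehicle library. With 17.4 as the value that 3 reads would have in WA replicate 1, the 0 there lies only a little under the vehicle range. The log2 fold change was -2.04 (standard error 1.38, limma adjusted p = 0.378), and -3.13 (standard error 0.979, limma adjusted p = 0.0466) without WA replicate 3, where 45.0% of all tested miRNAs passed. Without WA replicate 1, the library listed at 0, it was -0.73 (standard error 1.24, limma adjusted p = 0.799). In the fit without WA replicate 3, only vehicle libraries reached the value that the filter required. Entry to that fit thus rested on the group where miR-365a-5p is high, so neither its p nor its sign there supports a difference.

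**Figure D3:**
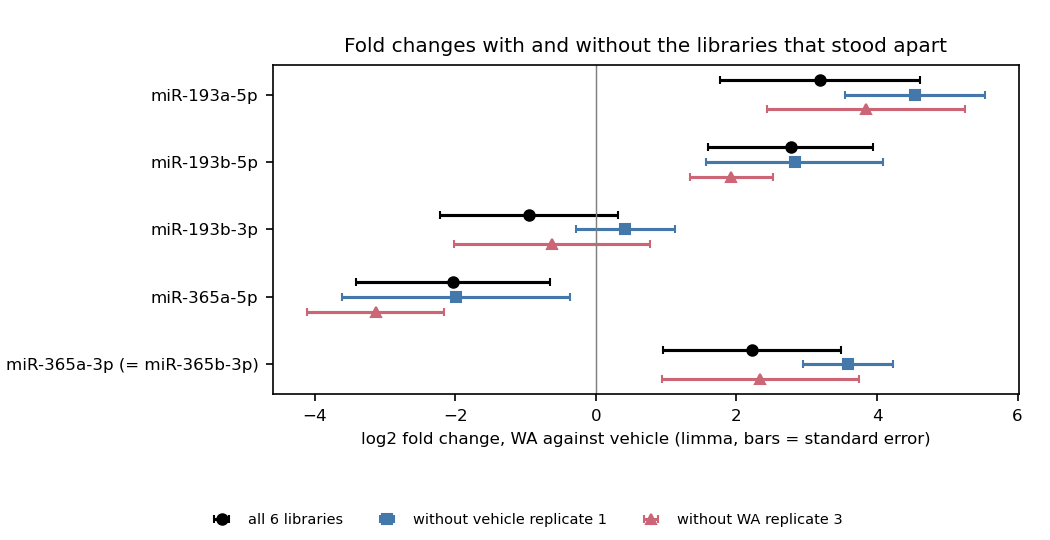
Log2 fold change of WA against vehicle by limma for the tested members, with standard errors as bars, from all 6 libraries (black), without vehicle replicate 1 (blue) and without WA replicate 3 (red). miR-193b-3p changes sign without vehicle replicate 1, from -0.96 to 0.42, and the other members keep their side of 0 in the 3 fits shown.

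Ratios between the reads of members in one library do not depend on how that library was scaled. The log2 ratios tested here add 1 to each normalized value (the pseudocount), so where an arm is low they do depend on it. In all, 7 ratios were compared by exact permutation tests, two-sided, in which 3 libraries against 3 cannot reach a p under 0.1. The p-values adjusted over the 7 ratios were 0.233 or higher. With 1 added to each value, the groups did not overlap for 3 of them. All 3 have miR-193b-3p as the denominator, so they are not separate results. In the same direction, 12.6% of the ratios of other tested miRNAs to miR-193b-3p did not overlap, and 13.0% of all 5p to 3p ratios.

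The clearest separation was between miR-365a-3p and miR-193b-3p, the 3p arms of the 2 hairpins on chromosome 16. Vehicle replicates 1 to 3 held 0.257, 0.357 and 0.182 miR-365a-3p reads per miR-193b-3p read. The WA libraries held 1.79, 2.30 and 3.13, in replicate order, so miR-193b-3p was the more abundant of them in every vehicle library and miR-365a-3p in every WA library. The mean log2 ratio was -1.95 ± 0.475 (SD, n = 3) under vehicle and 1.22 ± 0.403 (SD, n = 3) under WA. Vehicle replicate 1, although far above the other vehicle libraries in both arms, lay inside the range of the vehicle ratios. The difference of 3.17 on the log2 scale (exact permutation test, p = 0.1, adjusted p = 0.233) stayed between 2.94 and 3.41 with any 1 library left out. It was 2.96 without vehicle replicate 1 and WA replicate 3 together. Of the 326 other tested miRNAs, 41, or 12.6%, had a ratio to miR-193b-3p whose lowest WA value was above its highest vehicle value, and 35 differed by more than miR-365a-3p did. The sequence of miR-365a-3p is also made by MIR365B on chromosome 17, so this ratio is not one of a single transcript.

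The ratio of the miR-365 3p sequence to miR-193a-5p of chromosome 17 showed no such separation. Both ratios use the same miR-365 reads, which cannot be assigned to a locus. The contrast is therefore between miR-193b-3p and miR-193a-5p, a 3p and a 5p arm, and not between the clusters. Per miR-193a-5p read there were 2.69, 4.86 and 1.48 reads of the miR-365 3p sequence under vehicle, and 1.00, 0.837 and 2.80 under WA, in replicate order. The groups overlap, and the log2 difference was -0.97 (exact permutation test, p = 0.3, adjusted p = 0.420).

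Between the paralogs, the groups did not overlap in the ratio of the 3p arms and overlapped in that of the 5p arms. miR-193a-3p made up 0%, 1.65% and 1.13% of the miR-193 3p reads in the vehicle libraries, in replicate order. The 0 of 1918 reads in vehicle replicate 1 allows a share of up to 0.156%, and the 95% Wilson intervals of the others reached 3.23% and 2.43%. These limits and intervals cover counting error only. In WA replicates 1 to 3 the share was 15.2% (interval 8.44% to 25.7%), 17.1% (11.5% to 24.5%) and 2.34% (0.913% to 5.86%). WA replicate 3 therefore lay within the counting error of vehicle replicates 2 and 3, while WA replicates 1 and 2 lay above them. The log2 difference was 4.29 (exact permutation test, p = 0.1, adjusted p = 0.233), of which 2.38 was left without vehicle replicate 1, where miR-193a-3p was listed at 0. This difference was 5.59 with a pseudocount of 0.1 and 2.58 with a pseudocount of 10. miR-193a-5p made up 97.9%, 74.5% and 75.6% of the miR-193 5p reads under vehicle and 95.2%, 97.0% and 51.8% under WA, in replicate order. Here the lowest share was in WA replicate 3 and the highest in vehicle replicate 1.

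**Figure D4:**
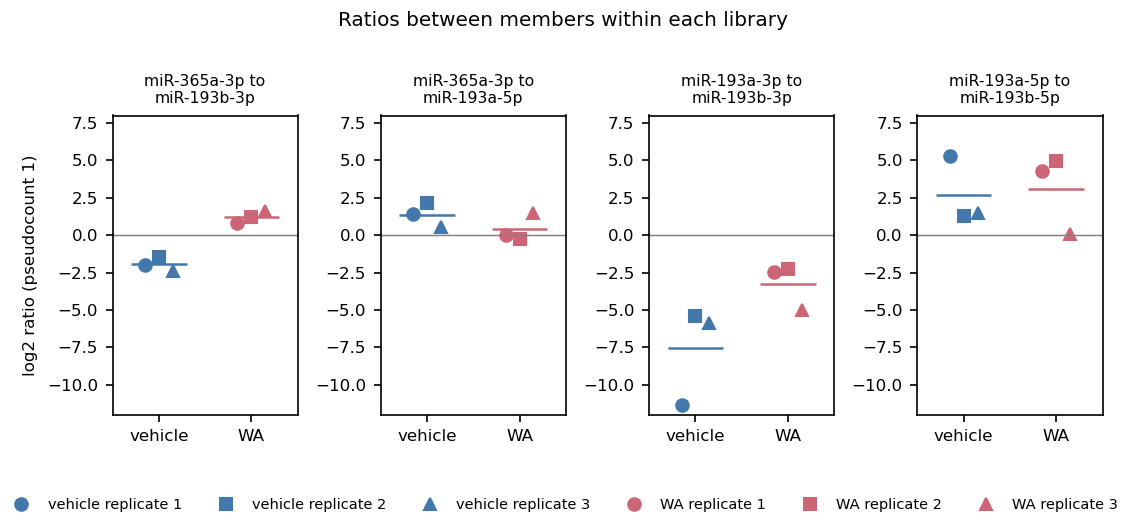
Log2 ratio between members within each library, with 1 added to each normalized value, one point per library and a bar at the group mean. The ratio of miR-365a-3p to miR-193b-3p lies below 0 in the 3 vehicle libraries and above 0 in the 3 WA libraries, and the 2 ratios that use miR-193a-5p overlap between the groups.

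The arms were compared within 3 of the 4 hairpins. For miR-193b the 5p arm held 0.208% of the reads in vehicle replicate 1 (95% Wilson interval 0.0810% to 0.534%). It held 2.46% (1.41% to 4.25%) and 3.83% (2.52% to 5.79%) in vehicle replicates 2 and 3. In WA replicates 1 and 2 it held 8.20% (3.55% to 17.8%) and 7.76% (4.14% to 14.1%), intervals that overlap those of vehicle replicates 2 and 3. WA replicate 3 stood apart at 51.0% (45.7% to 56.3%), with 174 reads of 5p and 167 of 3p. The log2 ratio of 5p to 3p was higher by 3.73 in WA-treated cells (exact permutation test, p = 0.1, adjusted p = 0.233), and the groups did not overlap. It was higher by 2.41 without vehicle replicate 1, and by 1.23 without vehicle replicate 1 and WA replicate 3 together. Among the 100 hairpins with both arms in the table, 13, or 13.0%, had a 5p to 3p ratio that was higher in every WA library.

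For miR-365a the order was the other way, without separation. The 5p arm held 3.72% of the reads in vehicle replicate 1 (95% Wilson interval 2.39% to 5.73%), 29.8% (24.3% to 35.8%) in vehicle replicate 2 and 47.3% (40.1% to 54.5%) in vehicle replicate 3. In WA replicate 1 it held 0 of 100 reads, which allows a share of up to 3.00%. In WA replicates 2 and 3 it held 1.60% (0.624% to 4.04%) and 6.44% (4.69% to 8.79%). Vehicle replicate 1 lay between the WA libraries, and the log2 difference was -4.25 (exact permutation test, p = 0.2, adjusted p = 0.35). The difference was -2.79 without WA replicate 1, where miR-365a-5p was listed at 0. It was -5.57 without vehicle replicate 1, when the groups no longer overlap, and -6.79 without vehicle replicate 1 and WA replicate 3 together. With all 6 libraries, 16 of the 100 hairpins had a 5p to 3p ratio that was lower in every WA library. The share without vehicle replicate 1 was not computed, so that non-overlap supports no difference. The 3p reads of this pair include any from MIR365B.

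For miR-193a the 5p arm was the larger share throughout, between 81.4% and 100% of the reads in the vehicle libraries and between 90.9% and 97.9% in the WA libraries. The log2 ratio differed by -0.14 (exact permutation test, p = 1, adjusted p = 1), and among the 100 hairpins its difference ranked 96 by size. In vehicle replicate 1 the 3p arm had 0 reads, so the ratio there was set by the pseudocount. The difference had the other sign, at 1.74, without that library, and was 1.12 with a pseudocount of 10. Its sign also changed without WA replicate 1, at 0.23, and without WA replicate 2, at 0.03.

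**Figure D5:**
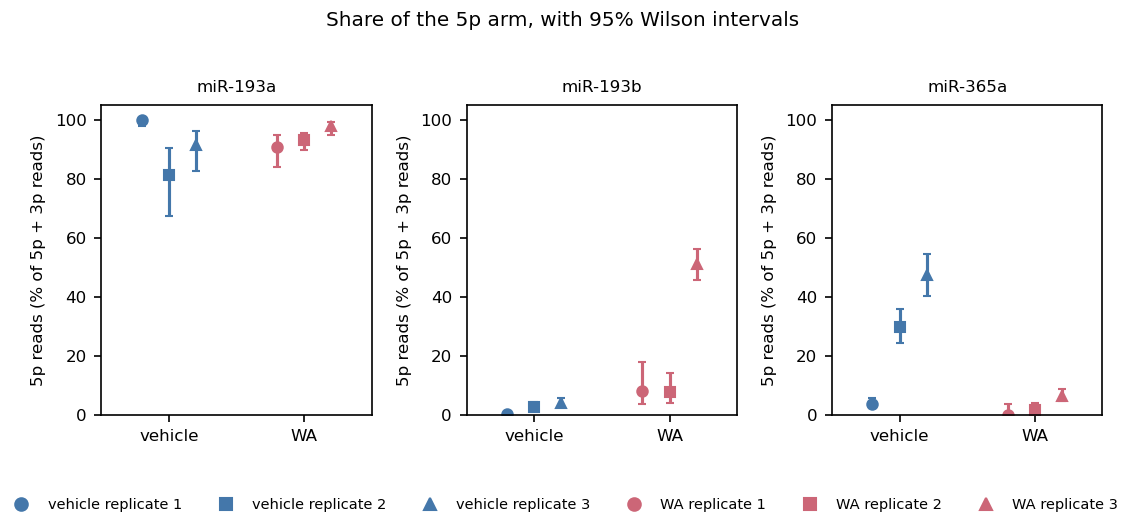
Share of 5p reads among the reads of both arms, in percent, for each library and hairpin, with 95% Wilson intervals as bars. miR-193a is at 81.4% or more in every library, miR-193b is at 8.20% or less outside WA replicate 3, and miR-365a is highest in vehicle replicates 2 and 3.

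The miRNAs nearest in profile to miR-193b-3p, miR-193a-5p and miR-365a-3p were other miRNAs, leaving aside miR-365b-3p, whose values equal those of miR-365a-3p. Likeness was measured as the root mean square difference, in log2 units, between values centred on their mean over the 6 libraries, among 321 tested miRNAs that are no members. miR-193b-3p was nearest to miR-455-3p (0.495), miR-1249-3p (0.641) and miR-1306-5p (0.767), against a median of 2.37 over all 321. All 3 had their highest value in vehicle replicate 1 and their lowest in WA replicate 3. miR-193a-5p and miR-365a-3p had the same 3 nearest miRNAs, which were miR-660-5p, miR-29b-1-5p and miR-502-3p, at 0.519, 0.569 and 0.641 from miR-193a-5p and at 0.452, 0.511 and 0.559 from miR-365a-3p. Between those 2 members the difference was 0.866, against medians over the 321 of 3.04 for miR-193a-5p and 2.76 for miR-365a-3p. Within chromosome 16, miR-193b-3p was 1.63 from miR-365a-3p, 2.57 from miR-193b-5p of its own hairpin and 2.30 from miR-365a-5p. The distances are descriptions over 6 libraries that share the libraries named above as standing apart.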

How the data were processed

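Small RNA of MDA-MB-231 cells was sequenced in 3 vehicle and 3 WA libraries, all used here. The authors trimmed the reads, aligned them to GRCh38.p10 with Bowtie, discarded other noncoding RNAs and matched the remainder to miRBase mature miRNAs with BLAST. The deposited signal is the read count per miRNA divided by a size factor of the library. Columns of the authors' own comparison (fold change, p and adjusted p) are deposited beside it and were not used. How the authors counted reads that fit several miRNAs is not given in the sources used here. The paper calls the replicates of each group independent without saying whether they were separate cultures, so p-values measure the spread between these libraries, which may be partly technical.

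Values were whole multiples of a step per library (within 0.01 of a step), but too few lie near 1 step to fix it, so the count model set first was replaced by limma 3.58.1 (R 4.3.3) on log2(value + 1), with the variance trend, unpaired and two-sided. Fold changes on this scale understate those of low values above 0, and where a value is 0 they depend on the pseudocount. That of miR-365a-5p was -3.16 with a pseudocount of 0.1 and -0.88 with a pseudocount of 10. Ratios and Wilson intervals used Python 3.11.15, scipy 1.17.1 and statsmodels 0.14.6. The fit was tested on simulated data. Sequences came from RefSeq (GRCh38.p14) and matched the hg38 genome at all 4 hairpins, and gene overlaps from GENCODE release 44. Named miRNAs are all members and the 3 nearest in profile to each of 3 members, with miR-1268a and miR-1268b named after their values were seen. A further list of miRNAs is not reported here. The members and lists were chosen with earlier results of these data known. The labels do not say whether same-numbered libraries were paired. The deviations of same-numbered libraries from their group means had correlations of -0.0692, 0.0571 and -0.0874 across the tested miRNAs. These deviations mostly follow vehicle replicate 1 and WA replicate 3, so they cannot show whether the libraries were paired.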

Additional observations from a re-analysis of the deposited data

How the results depend on the processing

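The members' number at an adjusted p under 0.05 was 0. It stayed 0 with the other scalings, pseudocounts and filters, with no variance trend and with the replicate block. The members tested changed with the filter. With 10 required in every library, they were miR-193b-3p and the miR-365 3p sequence alone. With 1 library left out, the members' number ran from 0 to 2. It was 2 without vehicle replicate 1 (the miR-365 3p sequence under both names, beside 21 of all 327 tested miRNAs). It was also 2 without WA replicate 3 (miR-193b-5p and miR-365a-5p, beside 147 of 327). It was 4, beside 235 of 327, without both of these libraries, an alternative chosen after seeing the data, in which each group has 2 libraries. There the log2 fold change was 5.19 for miR-193a-5p, 1.98 for miR-193b-5p, 3.71 for miR-365a-3p and miR-365b-3p and 0.75 for miR-193b-3p, a reversed sign. Over the fits with 1 library left out, the log2 fold change ran from 2.28 to 4.53 for miR-193a-5p, from -1.70 to 0.42 for miR-193b-3p, from 1.93 to 3.40 for miR-193b-5p, from 1.36 to 3.59 for miR-365a-3p and miR-365b-3p, and from -3.13 to -0.73 for miR-365a-5p. The number over all 327 tested miRNAs was 18, with 24 under the replicate block. It was 7 with a pseudocount of 0.1 and 7 with a pseudocount of 10. With no filter, 53 of 413 passed. Where only miRNAs reaching 10 in each of the 6 libraries were tested, 0 of 173 passed (29 at an unadjusted p under 0.05). With 1 library left out, the number ran from 0 to 147 of 327. The log2 ratio of miR-193a 5p to 3p reversed with a pseudocount of 10 (1.12) and without both those libraries (1.19), and ran from -1.37 to 1.74 with 1 left out. For miR-193a-5p to miR-193b-5p the range was -0.50 to 1.92. The other 5 ratios kept their sign in every alternative run. The block used the replicate numbers, for which no pairing is stated, and it changed no member's call. The cause was not tested for any of these changes. The count-based tests were not run, because the step could not be fixed as 1 read.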

Other observations

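Besides the miR-365 3p rows, 1 further pair of rows in the table was identical in every library, miR-1268a and miR-1268b.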
